A study of Mus musculus with 12 samples.

Results

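The genes described here are germline, meiosis and oocyte genes, a set of 39 symbols chosen by function, many of them as genes that DNA methylation silences in somatic cells. A symbol was found for 24813 genes in the count table, and 38 of the 39 symbols had at least 1 row, 59 rows in all. No row could be matched to *Piwil4*, so nothing is reported on it. Of the 38 genes, 27 had 1 listed transcript and 11 had 2 or more.

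RNA-seq was performed on female germline stem cells (FGSCs), cultured cells of C57BL/6 mice kept beyond passage 20 on inactivated STO feeder cells, a mouse embryonic fibroblast line. All 4 groups, of 3 libraries each, were lines of these cells. KO was a line without *Stella* (*Dppa3*, a maternal effect gene), made with lentiviral CRISPR guides and represented by 1 clone, and KO-con was the control of that knockout, which the labels describe no further. Over carried a lentivirus with the *Stella* coding sequence and was selected with puromycin, and Over-con carried the empty lentiviral vector. Between 5611846 and 12866545 reads per library were counted, so that 3 counts in a library, taken as the floor of detection, corresponded to 0.233 to 0.535 CPM (counts divided by the library total and scaled alike in every library); these floors cover counting error only. *Stella* itself was at 0 counts in the 9 libraries of KO, KO-con and Over-con and at 347, 371 and 285 counts in the 3 Over libraries, so the counts showed the overexpression and gave no check of the knockout. The labels do not say whether the libraries of a group came from separate cultures, so p-values measure the spread between these libraries, which may be technical.

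Germline genes serve steps that only cells on the way to eggs or sperm carry out. In meiosis the chromosomes are bound by special cohesins, paired by the synaptonemal complex and recombined after programmed breaks, while Piwi proteins and their small RNAs (piRNAs) hold transposons silent in cytoplasmic bodies called nuage. Many such genes have promoters rich in CpG sites that are methylated in somatic cells.

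The 250 bases upstream of the transcription start are shown for 3 genes that passed a test below (*Tcam1*, *Taf7l* and *Tex19.1*) and for 2 at or near 0 counts (*Stk31* and *Stra8*). Sequences are from RefSeq on GRCm38.p6, read 5′ to 3′ on the strand of the gene from the first start listed, and capitals mark CpG sites.
Tcam1, chr11:106276422-106276671, plus strand: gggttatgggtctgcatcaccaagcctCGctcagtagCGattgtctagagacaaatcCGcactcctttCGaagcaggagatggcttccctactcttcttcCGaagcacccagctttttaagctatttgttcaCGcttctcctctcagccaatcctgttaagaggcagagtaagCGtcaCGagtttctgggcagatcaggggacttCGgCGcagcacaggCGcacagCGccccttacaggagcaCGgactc
Taf7l, chrX:134476491-134476740, minus strand: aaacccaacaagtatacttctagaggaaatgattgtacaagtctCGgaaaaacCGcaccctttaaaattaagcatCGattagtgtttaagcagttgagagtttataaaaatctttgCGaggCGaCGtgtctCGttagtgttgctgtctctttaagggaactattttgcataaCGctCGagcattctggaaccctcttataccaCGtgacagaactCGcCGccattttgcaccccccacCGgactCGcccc
Tex19.1, chr11:121145893-121146142, plus strand: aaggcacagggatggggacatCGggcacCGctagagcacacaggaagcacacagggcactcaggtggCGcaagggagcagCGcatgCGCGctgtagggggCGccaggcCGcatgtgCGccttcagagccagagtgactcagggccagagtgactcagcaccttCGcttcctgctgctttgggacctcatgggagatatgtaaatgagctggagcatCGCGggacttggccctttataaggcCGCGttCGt
Stk31, chr6:49395289-49395538, plus strand: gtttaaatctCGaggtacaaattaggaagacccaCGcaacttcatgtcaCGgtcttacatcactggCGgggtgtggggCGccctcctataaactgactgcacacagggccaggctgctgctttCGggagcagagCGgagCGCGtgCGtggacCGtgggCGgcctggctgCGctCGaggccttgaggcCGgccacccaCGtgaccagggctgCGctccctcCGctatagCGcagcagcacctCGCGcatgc
Stra8, chr6:34920698-34920947, plus strand: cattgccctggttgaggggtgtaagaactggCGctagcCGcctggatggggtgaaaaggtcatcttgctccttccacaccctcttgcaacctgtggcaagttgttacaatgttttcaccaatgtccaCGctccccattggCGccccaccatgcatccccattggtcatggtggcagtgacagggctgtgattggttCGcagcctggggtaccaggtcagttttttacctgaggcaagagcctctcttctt
These stretches held 13 CpG sites in *Tcam1*, 14 in *Taf7l*, 15 in *Tex19.1* and 21 in *Stk31*, against 5 in *Stra8*. The gene with the most CpG sites of the 5, *Stk31*, was at 0 counts in all 12 libraries.

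Few of the germline genes were detected. 8 of the 38 had over 3 counts in all 12 libraries, 18 had over 3 counts in at least 1, and 20 had at most 3 counts in every library, 10 of them at 0 throughout. The number of listed transcripts must be read beside these counts. Genes with several listed transcripts received few counts in this table. Of 13105 protein-coding genes with 1 listed transcript, 50.6% averaged 1 CPM or more, but only 23.3% of 7541 genes with 2 or more did. *Gapdh*, a glycolytic enzyme used by every cell, has 2 listed transcripts and had 23 counts over all 12 libraries, while *Actb* (beta-actin), with 1, had 819865. A count of 0 is therefore not informative for the 7 genes with several transcripts that were at 0 (*Ddx4*, *Hormad1*, *Dmc1*, *Spo11*, *Rec8*, *Tdrd1* and *Mei1*). The same limit holds for *Dazl*, with 2 listed transcripts and 1 count in the KO-con 1 library. Among the 27 genes with 1 listed transcript, 7 (25.9%) had over 3 counts in all 12 libraries, beside 50.3% of all protein-coding genes with 1 listed transcript, and 3 (11.1%) were at 0 throughout, beside 21.0%.

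**Figure D1:**
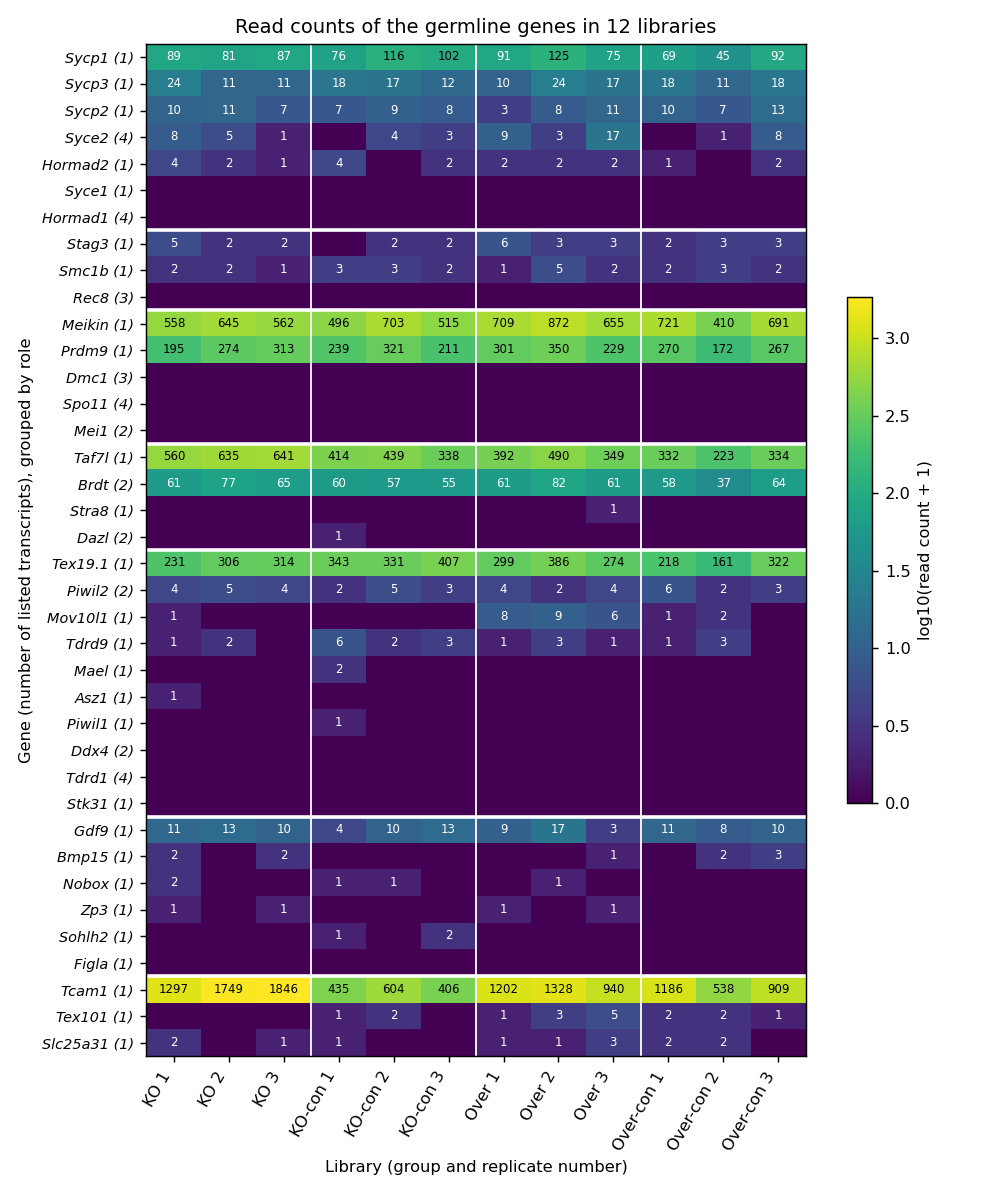
Read counts of the 38 germline genes (rows, with the number of listed transcripts in brackets, grouped by role) in 12 libraries (columns), coloured by log10(count + 1) and with each count above 0 printed. 8 genes had over 3 counts in all 12 libraries, led by Tcam1 and Meikin, and 10 rows were at 0 throughout.

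Of the synaptonemal complex genes, *Sycp1* and *Sycp3* had over 3 counts in all 12 libraries. *Sycp1*, which encodes the transverse filament that joins paired chromosomes, was the highest, with 89, 81 and 87 counts in KO, 76, 116 and 102 in KO-con, 91, 125 and 75 in Over, and 69, 45 and 92 in Over-con. *Sycp3*, of the lateral element, had 10 to 24 counts in a library. Its exons overlap *Chpt1* on the other strand, and the strand setting of the counting is not stated, so its reads cannot be assigned with certainty. *Sycp2*, the partner of *Sycp3*, had 3 to 13. *Syce1*, of the central element, was at 0 in all 12 libraries, a level under the floor of 3 counts. *Hormad2*, a protein of unsynapsed axes, had at most 4 counts. *Syce2* has 4 listed transcripts, and its counts of 0 to 17 fell on 1 of them.

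The meiotic cohesin subunits with 1 listed transcript lay near the floor. *Smc1b*, the meiotic SMC subunit, had 1 to 5 counts in a library, and *Stag3* had 0 to 6. Per kilobase of exon, *Smc1b* was at a mean level of 0.0606 CPM and its mitotic counterpart *Smc1a* at 52.9 CPM. *Stag1* and *Stag2*, the mitotic counterparts of *Stag3*, have 3 and 4 listed transcripts and were at 0.0095 and 0.201 CPM per kilobase, beside 0.0511 for *Stag3*, so this pair of levels cannot be read. The meiotic kleisin *Rec8*, with 3 listed transcripts, was at 0 and cannot be read either, and its counterpart *Rad21*, with 1, was at 99.3.

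Among the recombination and kinetochore genes, *Prdm9* and *Meikin* were well above the floor. *Prdm9* encodes the histone methyltransferase that marks recombination sites. It had 195, 274 and 313 counts in KO, 239, 321 and 211 in KO-con, 301, 350 and 229 in Over, and 270, 172 and 267 in Over-con. *Meikin*, a kinetochore protein of the first meiotic division (4930404A10Rik in the annotation), had 558, 645 and 562 counts in KO, 496, 703 and 515 in KO-con, 709, 872 and 655 in Over, and 721, 410 and 691 in Over-con. Per kilobase of exon, *Meikin* had the highest mean level of the 38 genes, 40.4 CPM, followed by *Tcam1* at 27.5, *Taf7l* at 19.22, *Tex19.1* at 16.2 and *Prdm9* at 5.97.

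The regulators differed widely in level. *Taf7l*, a germ cell form of a subunit of the general transcription factor TFIID, had 223 to 641 counts in a library. Its mean level of 19.22 CPM per kilobase stood above that of its ubiquitous counterpart *Taf7*, at 8.19. *Brdt*, the testis bromodomain protein, has 2 listed transcripts and had 37 to 82 counts, all on 1 of them. *Stra8*, which is induced by retinoic acid at entry into meiosis, had 1 count in the Over 3 library and 0 in the other 11, so no difference in *Stra8* was detectable at this depth.

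In the piRNA and nuage group, *Tex19.1*, a gene that restrains retrotransposons in germ cells, was the only one with over 3 counts in all 12 libraries, at 161 to 407. *Mael*, *Asz1*, *Piwil1* and *Stk31*, each with 1 listed transcript, had at most 2 counts in any library. The Argonaute protein *Ago2*, of the same family as *Piwil1*, was at 60.05 CPM per kilobase. *Ddx3x*, the ubiquitous relative of *Ddx4*, was at 230.5. *Tdrd9*, a helicase of the piRNA pathway, had at most 6 counts, and *Piwil2*, with 2 listed transcripts, had 2 to 6.

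Oocyte genes were at or near 0. *Figla*, a transcription factor of early oocytes, was at 0 in all 12 libraries. *Nobox* and *Sohlh2*, further oocyte transcription factors, and *Zp3*, of the egg coat, had at most 2 counts in a library. The growth factor *Bmp15* had at most 3, and *Gdf9*, its partner, had 3 to 17. All 6 oocyte genes have 1 listed transcript.

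Of the remaining testis genes, *Tcam1* (testicular cell adhesion molecule) had the highest counts of all 38 genes, 406 to 1846, and its mean of 103 CPM stood at the 79.8th percentile of genes with 1 listed transcript and any count. *Tex101*, a surface protein of germ cells, had at most 5 counts. *Slc25a31*, the ADP/ATP carrier of meiotic cells, had at most 3, whereas the somatic carriers *Slc25a4* and *Slc25a5* were at 154.5 and 462 CPM per kilobase.

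**Figure D2:**
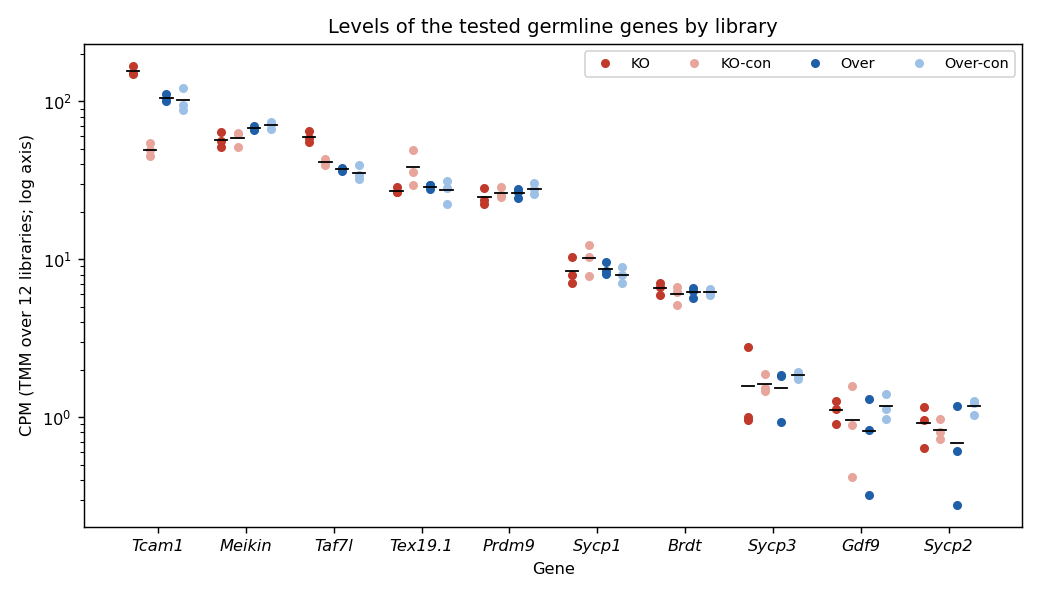
Levels of the 10 tested germline genes in CPM (TMM over 12 libraries, log axis), with 1 point per library, coloured by group, and a bar at the group mean. The 3 KO-con libraries lay between 45.1 and 54.1 CPM for Tcam1, below the other 9.

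The labelled cell type was checked against marker lists. Of 10 germ cell and FGSC markers, *Ifitm3* and *Dnd1* were over 3 counts in all 12 libraries, and *Ifitm3*, which somatic cells also express, reached 79.1 to 164 CPM of the library total. *Ddx4* and *Tfap2c* were at 0 and *Dazl*, *Pou5f1* and *Nanos3* at no more than 1 count, but these 5 have several listed transcripts. *Stella*, with 1 listed transcript, was at 0 outside Over, and *Prdm1*, also with 1, had 2 to 21 counts. Of 8 spermatogonial stem cell markers, 1 was over 3 counts in all 12 libraries. Of those with 1 listed transcript, *Bcl6b* had at most 1 count, *Lhx1* at most 2, *Nanos2* at most 4, and *Id4* had 2 to 26. 7 of 10 fibroblast markers and 6 of 10 leukocyte markers were over 3 counts in all 12 libraries. The summed leukocyte level was 1120 to 1261 CPM in KO, 994 to 1091 in KO-con, 1173 to 1230 in Over and 1285 to 1386 in Over-con, with no overlap in any of the comparisons below. *Laptm5*, at 717 to 1055 CPM in a library, made up most of this sum, which does not show that the other markers moved alike. *Cd68* was higher in Over (41.5 to 42.1 CPM) than in Over-con (27.6 to 30.2), against the direction of the sum. *Fcer1g* overlapped in every comparison. The summed fibroblast level was 945 to 1385 CPM in KO, 1084 to 1273 in KO-con, 1408 to 1453 in Over and 1549 to 1747 in Over-con. It overlapped between KO and KO-con only. Collagens made up most of this sum, which does not show that the other markers moved alike. *Thy1* was higher in KO (42.8 to 48.8 CPM) than in KO-con (33.1 to 38.4). *Dcn* (34.0 to 43.5 against 46.9 to 55.2) and *Pdgfra* (1.6 to 3.3 against 4.0 to 5.8) were lower. None of these overlapped, beside 30.5% of all transcripts tested there. The part of these cells in the gene changes below was not tested. RNA from feeder cells and RNA from FGSCs cannot be told apart in these bulk counts, nor can fewer cells of a type and less RNA per cell.

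The knockout line KO was compared with its control KO-con to see which germline genes differed. As KO is 1 clone, an effect of losing *Stella* cannot be told apart from another difference between the lines. *Tcam1* and *Taf7l* were higher in KO, *Tex19.1* was lower, and the other 7 tested genes did not pass. A gene passed at an adjusted p under 0.05 (Benjamini-Hochberg over all 9457 transcripts tested, edgeR's quasi-likelihood test) and was a differentially expressed gene (DEG) if its log2 fold change also exceeded 1 in size. The filter on low counts left 10 of the 38 genes to test. 3 of these 10 passed, beside 11.8% of all transcripts tested, and 1 was a DEG, beside 1.70%. The median log2 fold change of the 10 was 0.04, and that of all transcripts tested was 0.01.

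*Tcam1* had the largest change of the 10. It lies on chromosome 11 from 106137986 to 106150059 (mm9, plus strand). Its level was 149.7, 152 and 168 CPM in the KO libraries, and 45.1, 54.1 and 49.3 CPM in KO-con. The groups did not overlap. This held for 3 of the 10 genes, beside 30.5% of all transcripts tested. Group means were 156 ± 9.88 and 49.5 ± 4.54 CPM (SD, n = 3), and the log2 fold change was 1.67 (standard error 0.09, adjusted p = 3.26e-09, edgeR).

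*Taf7l*, on the X chromosome from 130994657 to 131011029 (mm9, minus strand), was at 64.6, 55.2 and 58.3 CPM in KO. In KO-con it was at 42.9, 39.4 and 41.0 CPM, below every KO library. Its log2 fold change was 0.54 (standard error 0.09, adjusted p = 0.00101, edgeR), so it passed without being a DEG.

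*Tex19.1*, on chromosome 11 from 121007457 to 121009633 (mm9, plus strand), was at 26.7, 26.6 and 28.5 CPM in KO. The KO-con libraries were at 35.5, 29.7 and 49.4 CPM, a wide spread in which the second library lay close to KO. The log2 fold change was -0.47 (standard error 0.15, adjusted p = 0.0494, edgeR). This call rests on the KO-con 3 library, since without it the log2 fold change was -0.25 and the adjusted p was 0.258. It was also lost without KO 1 (adjusted p = 0.0533), KO 2 (0.162) or KO-con 1 (0.0928).

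The other 7 tested genes overlapped between KO and KO-con. For *Meikin* the log2 fold change was -0.04 (standard error 0.10), for *Prdm9* -0.07 (0.12) and for *Sycp1* -0.28 (0.19). Adjusted p-values of the 7 from edgeR's quasi-likelihood test lay between 0.401 and 0.922. *Sycp3* was at -0.09 with a standard error of 0.41, so that at 10 to 24 counts in a library only a large change could have been resolved.

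*Stella* overexpression was compared with the empty vector in the same way. None of the 10 tested germline genes passed edgeR's quasi-likelihood test (0 of 10, beside 1.65% of 9401 transcripts tested). None reached an unadjusted p of 0.05, DESeq2 and limma-voom also called 0, and 0.170% of transcripts were DEGs. None of the 10 was without overlap between the groups, beside 19.1% of transcripts. *Tcam1* was at 111, 102 and 101 CPM in Over and at 122, 94.9 and 88.4 CPM in Over-con, with overlapping groups and a change of 0.05 on the log2 scale (standard error 0.10). Those of *Taf7l* and *Tex19.1* were both 0.09, that of *Meikin* was -0.07 and that of *Prdm9* was -0.06. For *Sycp3* the change was -0.25 (standard error 0.34, adjusted p = 0.818, edgeR). The median of the 10 was -0.03, and that of all transcripts tested was -0.001.

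**Figure D3:**
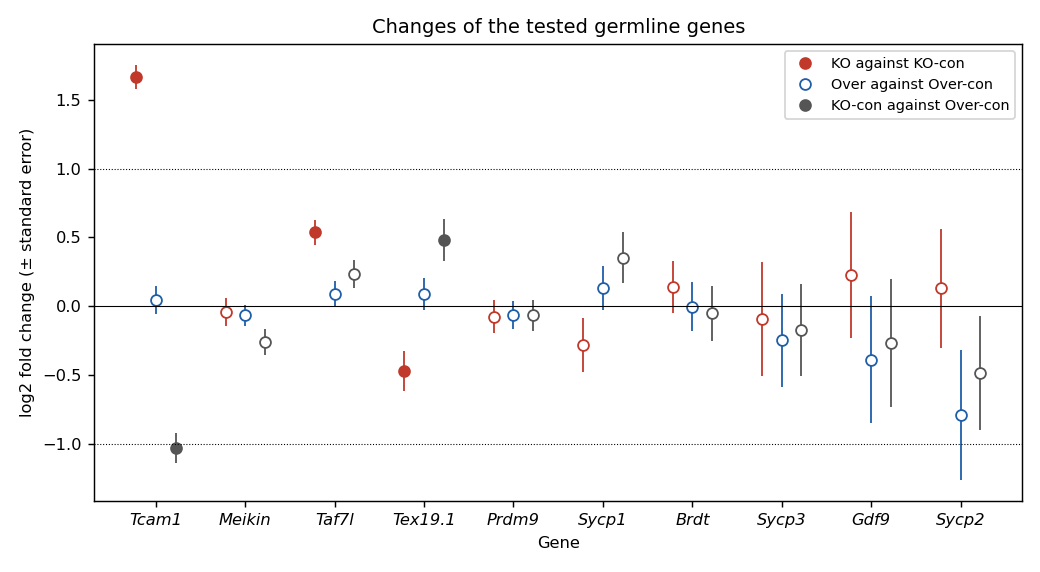
Log2 fold changes of the 10 tested germline genes with standard errors in 3 comparisons, with filled points for an adjusted p under 0.05 (edgeR) and dotted lines at a log2 fold change of 1 in either direction. Tcam1 stood at 1.67 in KO against KO-con, at 0.05 in Over against Over-con and at -1.03 in KO-con against Over-con.

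*Mov10l1*, an RNA helicase needed to make piRNAs, was too low to be tested with the others. It had 8, 9 and 6 counts in Over and 1, 2 and 0 in Over-con, so these groups did not overlap, beside 19.1% of the transcripts tested. It had 1, 0 and 0 counts in KO and 0 in all 3 KO-con libraries. *Mov10l1* is described because all 3 Over libraries were over 3 counts. The ratio and tests below use the values that picked it, so they are a description and no support for a difference. Summed over libraries, the counts were 23 of 32561483 in Over and 3 of 25698706 in Over-con, a ratio of levels of 6.05 with an exact 95% interval of 1.83 to 31.5 that covers counting error only. An exact two-sided permutation test over the libraries gave p = 0.1, the smallest that 3 against 3 can give. With no filter on low counts, edgeR's quasi-likelihood test gave an adjusted p of 0.165 over all transcripts.

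Both controls had no intended change of *Stella*, and they were compared to see how far germline genes differed between control lines. KO-con is the same set of 3 libraries as in the knockout comparison, so the comparisons are not independent. *Tcam1* was lower in KO-con than in Over-con, at -1.03 on the log2 scale (standard error 0.11, adjusted p = 9.37e-07, edgeR) and no overlap. This held for 4 of the 10 genes, beside 32.3% of transcripts. *Tex19.1* was higher in KO-con by 0.48 (standard error 0.15, adjusted p = 0.0383, edgeR), with overlapping groups. These were 2 of 10 genes tested, beside 16.3% of 9321 transcripts, and *Tcam1* was the 1 DEG, beside 2.16%. Without KO-con 3 the value for *Tex19.1* was 0.26 and the adjusted p was 0.288, and it also did not pass without KO-con 1, Over-con 1 or Over-con 2 (adjusted p = 0.0593 to 0.238). The DEG call of *Tcam1* was lost without KO-con 1 or Over-con 1, at log2 fold changes of -0.96 and -0.88, although both still passed.

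Measured against the other control group, Over-con, the KO libraries were higher in *Tcam1* by 0.62 on the log2 scale (adjusted p = 0.00243, edgeR), no longer a DEG. For *Taf7l* the change was 0.76 (adjusted p = 0.000456, edgeR) and for *Tex19.1* it was -0.001. Thus *Tcam1* and *Taf7l* passed against either control and *Tex19.1* against KO-con alone.

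The mast cell gene *Cpa3*, a granule protease, was, like *Tcam1*, highest in KO and lowest in KO-con. It was at 1142 to 1192 CPM of the library total in KO, 357 to 406 in KO-con, 647 to 682 in Over and 749 to 871 in Over-con. Unlike *Tcam1*, *Cpa3* did not overlap between Over and Over-con. The summed level of 10 mast cell markers was 1153 to 1205 CPM in KO, 366 to 416 in KO-con, 658 to 689 in Over and 760 to 875 in Over-con. *Cpa3* made up nearly all of this sum, so it does not show that the other markers moved alike. 4 of the 10 markers were over 3 counts in all 12 libraries, and *Fcer1a*, *Ms4a2* and *Tpsab1* were at 0. *Hdc* was at 2.96 to 6.13 CPM in KO, 0.889 to 2.20 in KO-con, 2.32 to 3.76 in Over and 1.07 to 2.04 in Over-con. *Cma1* was at 2.73 to 5.33 CPM in KO, 0.395 to 1.66 in KO-con, 0.471 to 0.772 in Over and 0.307 to 0.388 in Over-con. Thus *Cma1* was lowest in Over-con, and *Hdc* overlapped between KO-con and Over-con. *Gata2* and *Mitf* overlapped between KO and KO-con. The part of such cells in the *Tcam1* values was not tested.

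The difference between the KO effect (KO against KO-con) and the Over effect (Over against Over-con) was tested with all 12 libraries in 1 fit. 2 of the 10 genes passed, beside 8.64% of 9903 transcripts, and 1 had a difference over 1, beside 1.90%. For *Tcam1* the difference of log2 fold changes was 1.62 (standard error 0.14, adjusted p = 3.03e-07, edgeR). For *Taf7l* it was 0.44 (standard error 0.13, adjusted p = 0.0348, edgeR), a call that held without KO 2, KO 3 or Over-con 3 and was lost when any of the other 9 libraries was left out, with adjusted p-values of 0.0521 to 0.111. *Tex19.1* did not pass, at -0.56 (adjusted p = 0.111).

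The genes within 100 kb of *Tcam1* and *Taf7l* were examined, a choice made after the values of both had been seen. Near *Tcam1*, the proteasome subunit *Psmc5*, 13552 bases away, was higher in KO by 0.25 (adjusted p = 0.0298, edgeR), and the other 6 tested neighbours, 3 of them with several listed transcripts, did not pass. Near *Taf7l*, *Drp2* (dystrophin-related protein), 3545 bases away, was higher by 1.19 (adjusted p = 0.00202, edgeR). The KO libraries averaged 6.49 ± 0.961 CPM and the KO-con libraries 2.82 ± 0.402 (SD, n = 3), without overlap. In Over against Over-con *Drp2* was higher by 0.65 and did not pass (adjusted p = 0.308, edgeR). Those groups did not overlap either, beside 19.1% of transcripts. *Btk*, a tyrosine kinase of blood cells, was higher in KO by 0.31 (adjusted p = 0.0188, edgeR). *Timm8a1*, which lies between *Taf7l* and *Btk*, was at -0.11 (adjusted p = 0.504, edgeR). The difference between the KO and Over effects did not pass for *Drp2* (0.54, adjusted p = 0.357, edgeR) or *Btk* (0.31, adjusted p = 0.067, edgeR). For *Psmc5* it passed, at 0.30 (adjusted p = 0.0386, edgeR).

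**Figure D4:**
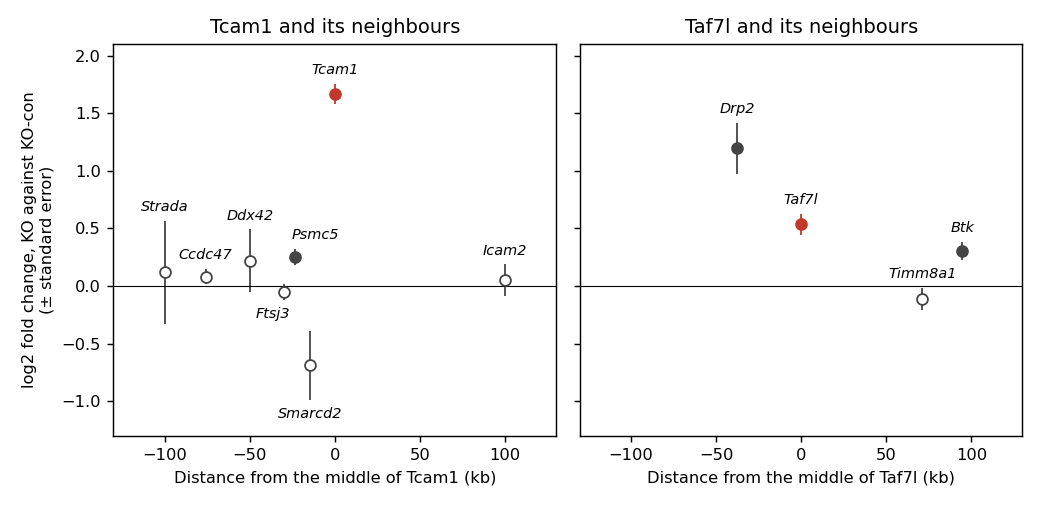
Log2 fold changes in KO against KO-con, with standard errors, of Tcam1 (left) and Taf7l (right) in red and of the tested genes within 100 kb in grey, by distance between gene middles in kb. Filled points passed the test; Drp2 stood at 1.19 and Taf7l at 0.54, while Tcam1 at 1.67 was far above all its tested neighbours.

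Of 70 further meiotic, piRNA and oocyte genes, 65 had a row, 42 of these with 1 listed transcript. 11 had over 3 counts in all 12 libraries, all of them among the 42, beside 50.3% of all protein-coding genes with 1 listed transcript. The 11 included *Gpat2*, a mitochondrial protein of the piRNA pathway, which averaged 116 CPM in the KO libraries and 117 in their controls. *Ythdc2*, an RNA helicase of meiotic entry, was also among them, at 55.8 and 51.7 CPM. 12 could be tested in each comparison. *Ccnb1ip1*, a ubiquitin ligase required for crossing over, was the 1 gene of 12 that passed in the knockout, a smaller share than the 11.8% of all transcripts, at 21.2 ± 1.93 against 15.5 ± 0.601 CPM (SD, n = 3) with a change of 0.44 on the log2 scale (adjusted p = 0.0268, edgeR). It was also lower in KO-con than in Over-con, by -0.61 (adjusted p = 0.00143, edgeR), again the 1 gene of 12, beside 16.3% of all transcripts. In Over against Over-con no gene of this list passed edgeR's test (0 of 12, beside 1.65% of all transcripts, and 1 at an unadjusted p under 0.05). That one was *Trip13*, an ATPase that removes HORMA-domain proteins from chromosome axes, with a log2 fold change of 0.39 (adjusted p = 0.174, edgeR).

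The promoters had features in common. CpG content is tied to the choice of genes through methylation, and whether the motifs are tied to that choice as well was not tested. RefSeq windows of 300 bases, from 250 before to 50 after the start, were found for 35 of the 39 symbols. The median number of CpG sites was 18, beside 7 over all 27025 genes with a window. The ratio of CpG sites observed to those expected from the base composition had a median of 0.674, beside 0.389. Searched on both strands, CACGTG, the E-box that MAX dimers bind, was present in 16 windows (45.7%), beside 7.2% of all windows. TCCCGC, found in E2F sites, was present in 14 (40.0%), beside 20.0%. No site of one overlapped a site of the other in these 35 windows. Among windows with a CpG ratio of at least 0.5, CACGTG was in 14 of 27 of the germline genes (51.9%) and in 11.1% of 11507 of all genes. TCCCGC was in 12 of these 27 (44.4%) and in 40.0% of all, so most of its excess over all windows was absent above this ratio. The sets were not equal in CpG content, with a median ratio of 0.716 in the germline genes and 0.799 in all genes.

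Detected and undetected germline genes both had such windows. The median CpG ratio was 0.738 over the 7 genes with over 3 counts in all 12 libraries and a window, and 0.559 over the 12 genes with 1 listed transcript and at most 3 counts in every library. CACGTG was in 5 of the 7 and in 5 of the 12. The windows of *Tcam1* and *Taf7l* each held 1 CACGTG and no TCCCGC. In *Taf7l* the site lies in the bases printed above, and in *Tcam1* it lies in the 50 bases after the start. *Tex19.1* had 1 TCCCGC and no CACGTG. A match to these letters describes the sequence and does not show binding.

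**Figure D5:**
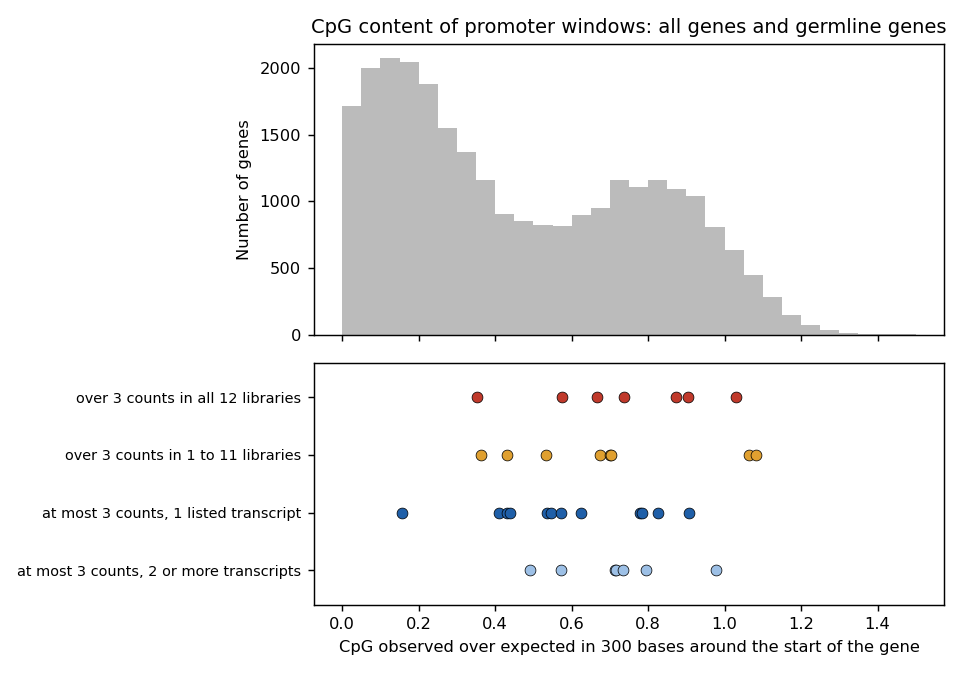
CpG observed over expected in the 300-base promoter window (horizontal axis) for all 27025 genes as a histogram (top) and for the germline genes with a row and a window as 1 point per gene, by detection class (bottom). Undetected genes with 1 listed transcript had a median of 0.559 and genes detected in all 12 libraries 0.738, both above the 0.389 of all genes.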

How the data were processed

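RNA-seq libraries of 12 FGSC samples (4 groups of 3, grouped and numbered by their titles) were prepared with a kit for stranded mRNA. The authors aligned trimmed reads to mm9 with HISAT2, and they deposited raw read counts per RefSeq transcript, without normalization, in 1 table of 41388 rows whose name points to featureCounts. The strand setting, the annotation release and the treatment of reads shared between transcripts are not given in the sources used here. Genes with 2 or more listed transcripts had few counts, so a count near 0 was not read as a low level for them, and their other values are given as counted.

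Symbols (41186 rows) were those RefSeq lists for GRCm38.p6, with positions and exon lengths from GENCODE M1 on NCBIM37 (mm9), and promoter windows from RefSeq on GRCm38.p6. Each comparison was fitted over all transcripts with edgeR 4.0.16 (TMM, filterByExpr, glmQLFit, glmQLFTest, Benjamini-Hochberg), with only its own groups in the fit, and the difference of effects with all 12 libraries. Per-library CPM were scaled by TMM over the 12 libraries, and levels per kilobase and marker sums by library totals. Transcripts were tested as listed. The steps were tested on simulated data. Ratios of low counts have exact 95% binomial intervals. Totals of 5611846 to 12866545 counts set the floor of 3 counts, which covers counting error only.

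Genes over 3 counts in all libraries of at least 1 group are described in the text by library or by the range of their counts. A few lower genes, picked after their values were seen, are given by library for some groups. Genes that passed a test have their statistics, as do the genes with primers in the study that could be tested. The germline genes and lists were chosen with earlier results of these data known. Replicates of a group differed by more than counting noise (chi-square per degree of freedom 1.93 to 12.3 over 12 pairs). Alternatives were DESeq2 1.42.0, limma-voom (limma 3.58.1), DESeq2 size factors, library totals, no filter, a minimum of 10 counts per library, 1 fit of all 12, counts summed per gene, the replicate block, the other control group and each library left out. R 4.3.3 and Python 3.11.15 were used.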

Additional observations from a re-analysis of the deposited data

Results flagged for a closer look

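The change in KO against KO-con differed from that in Over against Over-con for 2 germline genes, by a test of the difference itself with all 12 libraries in 1 edgeR fit. For *Tcam1* the log2 fold change was 1.62 larger in the knockout comparison (adjusted p = 3.03e-07, edgeR), and all 3 KO libraries lay above all 3 KO-con libraries, while Over and Over-con overlapped. Over the 12 fits that each left out 1 library the difference stayed between 1.46 and 1.72. For *Taf7l* the difference was 0.44 (adjusted p = 0.0348, edgeR), and the adjusted p lay between 0.0164 and 0.111 over those 12 fits. The levels of the mast cell gene *Cpa3*, which was also highest in KO and lowest in KO-con, are given above. The controls themselves differed in *Tcam1*, with KO-con against Over-con at a log2 fold change of -1.03. With the other control group, *Tcam1* was at 0.62 in KO against Over-con and at 1.08 in Over against KO-con.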

How the results depend on the processing

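Of the log2 fold changes of the 10 tested genes recomputed under the alternatives, 614 stayed on their side of the threshold with no called value reversed, 25 were no longer past it, 6 came to pass and 1 reversed. The reversal was *Tex19.1* in Over, at -0.38 (adjusted p = 0.0241, edgeR) against KO-con. With the other control group KO had 0 DEGs among the germline genes, and Over had 2 passing genes and 1 DEG. With limma-voom 1 gene passed between the controls. Leaving out each library gave 1 to 3 passing genes and 0 to 1 DEGs between the controls, and 1 to 3 passing genes for the difference of effects. The replicate block left 1 passing gene for the difference of effects, *Tcam1*, the value for *Taf7l* being 0.45 (adjusted p = 0.0526), and it changed no other call of the 10 genes. Same-numbered samples of different groups did not deviate together (r of -0.191 to 0.051 over 9 pairs), and not every sample correlated best with its own number. Counting detection as over 0 counts in at least 1 library gave 28 genes and as over 10 gave 11, and group totals over 3 gave 14 genes detected in every group. *Tex19.1* in KO was also lost with limma-voom, library totals and the stricter filter (adjusted p = 0.0506 to 0.0789), and *Taf7l* in the difference without a filter (0.0689). *Meikin* came to pass between the controls with library totals and without Over-con 3, at -0.31 in both, and *Tex19.1* lost its call there with library totals (0.43, adjusted p = 0.0756) and limma-voom (0.45, adjusted p = 0.0548). Why these calls moved was not tested. Depth limits the genes under 3 counts, and genes with several listed transcripts could not be judged.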

Other observations

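Some germline genes too low to be tested had uneven counts. They were picked after their values were seen, in both directions. With no filter on low counts, none of those given here passed edgeR's quasi-likelihood test in any comparison. The lowest adjusted p was 0.237, for *Bmp15* in the difference of effects. *Syce2*, a central element protein of the synaptonemal complex with 4 listed transcripts, had 9, 3 and 17 counts in Over and 0, 1 and 8 in Over-con, with overlapping groups. *Tex101*, a surface protein of germ cells, was at 0 in all 3 KO libraries and had 1, 3 and 5 counts in Over and 2, 2 and 1 in Over-con. The helicase *Tdrd9* had 1, 2 and 0 counts in KO, 6, 2 and 3 in KO-con, 1, 3 and 1 in Over and 1, 3 and 0 in Over-con. The oocyte growth factor *Bmp15* had 2, 0 and 2 counts in KO and 0 in all 3 KO-con libraries. It had 0, 0 and 1 counts in Over and 0, 2 and 3 in Over-con.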
